A study of Mus musculus with 24 samples.

Results

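The genes described here encode the pericentriolar material and the gamma-tubulin ring complex, the parts of the centrosome that nucleate microtubules. Counted with them is *Pcm1*, whose protein forms small granules around the centrosome. The genes were chosen by symbol, and all 10 were found among the 54658 genes listed. These were *Pcnt*, *Pcm1*, *Tubg1*, *Tubgcp2*, *Tubgcp3*, *Tubgcp4*, *Tubgcp5*, *Tubgcp6*, *Nedd1* and *Mzt1*. All 10 also passed the filter on low values, a mean normalized read count of at least 10 in the libraries compared.

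A centrosome holds centrioles surrounded by pericentriolar material. Pericentrin is a large scaffold of that material, and PCM1 is the core protein of centriolar satellites, small granules that move proteins to and from the centrosome. Gamma-tubulin binds GCP2 and GCP3 in a small complex, and copies of it join GCP4, GCP5, GCP6 and the small protein MZT1 in a ring that serves as a template for new microtubules. NEDD1 anchors the ring to centrosomes and spindles. CEP135 is a protein of the centriole itself and takes part in centriole assembly. Radial glia of the embryonic cortex depend on centrosomes for mitosis and for the primary cilium.

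RNA was sequenced from the dorsal telencephalon of mouse embryos from *Cep135* heterozygous crosses. The allele was made in B6.CBA zygotes, and the mice were kept on a C57BL/6J background. Mutants were homozygous for the *Cep135*(Δ8) allele, labelled *Cep135* (-/-), which carries a small CRISPR/Cas9 deletion in the second exon, and controls were *Cep135*(+/+). There were 3 mutant (A, B, C) and 3 control (D, E, F) cortices at E11.5. At E14.5 there were 3 mutant (1, 2, 6) and 3 control (3, 4, 5) cortices. By the prefix of their sample names, taken as the litter, the E11.5 embryos came from 2 litters and the E14.5 embryos from 1. The labels do not name a litter. For mutants B and C, title and description gave different prefixes, and that of the title was used. Cells of the same 6 E14.5 embryos were also grown as incipient neurospheres in medium with EGF and FGF2 for 12 hours and for 24 hours, which gave 24 libraries in all. The E14.5 cortex of mutant 6 carried a description naming the other age, and it was used at the age of its title and source. Without it, the number of the 10 genes called between the ages was also 7. Since the E11.5 and E14.5 embryos had different prefixes, age and litter cannot be told apart. The E14.5 cortices enter the comparison with E11.5 and the comparison with culture, and the 12 h neurospheres enter both culture comparisons, so these comparisons share libraries.

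Reads on genes ranged from 4732781 to 11645213 a library, with a median of 8111692.5. Levels are given as the normalized read count, the reads of a gene divided by the size factor of the library, and fold changes are differences of log2(normalized read count + 1), which understate the change of low genes. A gene was called where the limma test gave an adjusted p under 0.05. Libraries are read from the 3′ end of the transcript, so a level follows the number of transcripts, and levels are not compared between genes. The libraries start at the 3′ end of transcripts and the *Cep135* deletion is in the second exon, so the level of *Cep135*, with means of 303 in the E11.5 mutants and 329 in the E11.5 controls, does not check the genotype. The 24 h mutant libraries were deeper than the 24 h controls, with at least 7903426 against at most 5709443 reads, and the share of *Gm42418*, which overlaps a ribosomal RNA locus, was 20.5% to 23.0% against 6.26% to 13.9%. At 12 hours, control 4 had the largest *Gm42418* share of any library, 34.8%. Progenitor and neuron markers were all above 0 in every group. Microglia sums fell away in culture, from at least 401 in the E14.5 cortices to at most 61.3 in the neurospheres. In bulk samples, fewer cells of a type and less RNA per cell cannot be told apart.

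Between E11.5 and E14.5, transcripts of most of these genes became less abundant in the cortex. Of the 10, 7 were lower at E14.5 by the limma test with Benjamini-Hochberg adjustment: *Nedd1*, *Tubgcp4*, *Pcnt*, *Tubgcp3*, *Tubgcp6*, *Tubg1* and *Tubgcp2*. None was higher, and *Tubgcp5*, *Mzt1* and *Pcm1* did not pass the test. Over all 13650 genes tested, 29.3% were called lower and 23.8% higher. That lean over all genes depended on the scaling. With TMM rescaling 3469 genes were called lower and 3590 higher, and with edgeR 3434 and 3614. The median log2 change was -0.38 over the 10 genes and -0.08 over all genes tested. The plot of all 24 libraries shows these values for each gene.

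**Figure D1:**
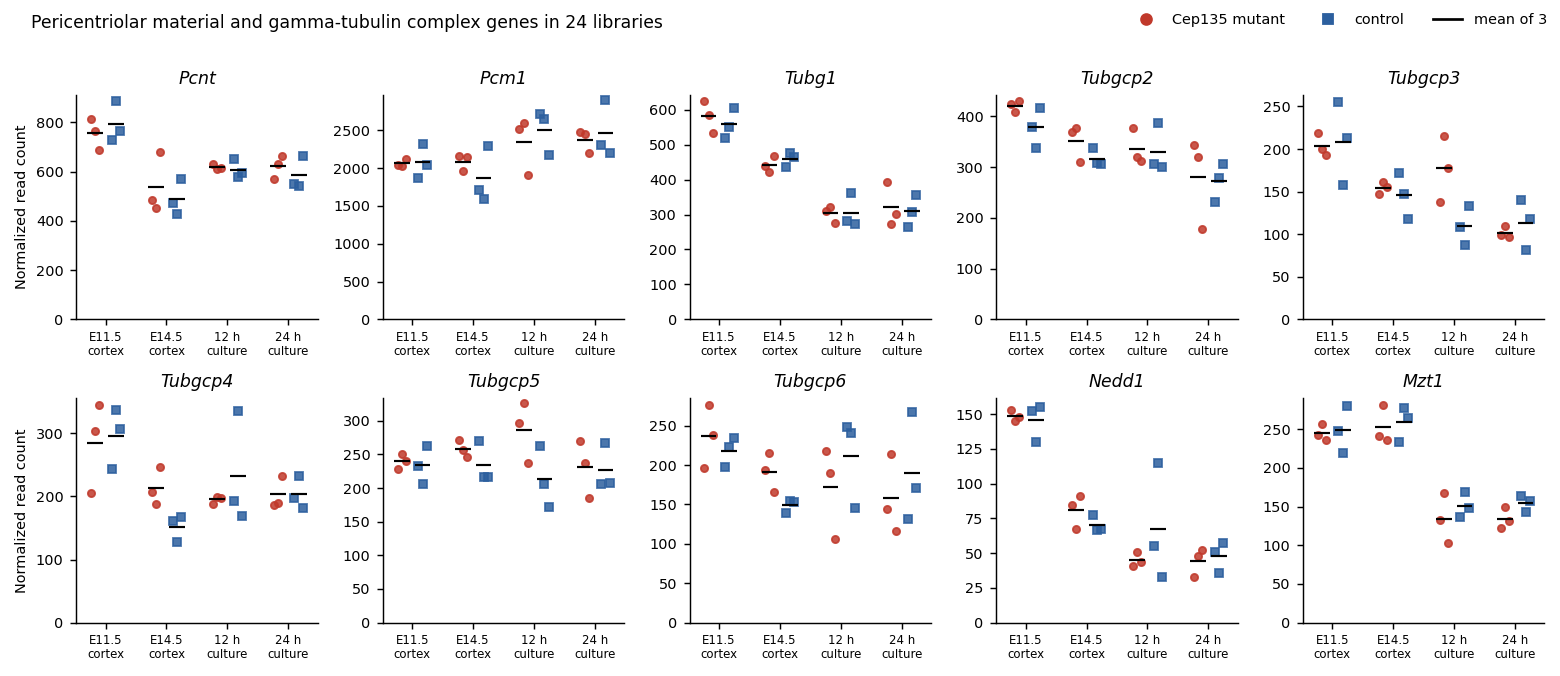
Normalized read count of each of the 10 genes (y axis, linear and starting at 0) in the 4 conditions (x axis), with 3 *Cep135* mutant libraries (circles) and 3 control libraries (squares) each and a line at each mean. *Nedd1*, *Pcnt* and *Tubg1* separate the 6 E11.5 from the 6 E14.5 cortices, and *Tubg1* and *Mzt1* separate the E14.5 cortices from the 12 h neurospheres.

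Among the scaffolds, *Pcnt* spanned 689 to 889 normalized reads in the 6 E11.5 cortices, with a median of 764, and 427 to 679 in the 6 E14.5 cortices, with a median of 479. The groups did not overlap, although E14.5 mutant 6, at 679, came close to E11.5 mutant C, at 689. The log2 fold change was -0.60 (SE 0.11), a fold of 0.66, with an adjusted p of 0.000268. *Pcm1* did not pass the test at the same step. It spanned 1873 to 2315 at E11.5 and 1597 to 2294 at E14.5, and its log2 difference of -0.08 (SE 0.09) was smaller than the spread between embryos, with a 95% interval of -0.28 to 0.12.

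Of the gamma-tubulin small complex, *Tubg1* had 520.0 to 624 normalized reads at E11.5 and 421 to 475 at E14.5, again without overlap. Its log2 fold change was -0.34 (SE 0.08, adjusted p = 0.00178). *Tubgcp2*, which encodes GCP2, spanned 338 to 429.8 at E11.5 and 305 to 376 at E14.5, and *Tubgcp3*, which encodes GCP3, spanned 157 to 255 and 118 to 172. For both, the groups overlapped, and E11.5 control E held the lowest E11.5 value of each. Their log2 fold changes were -0.26 (SE 0.08, adjusted p = 0.0176) and -0.45 (SE 0.12, adjusted p = 0.00632). The *Tubgcp2* call was lost with TMM rescaling (adjusted p = 0.0538), with all 24 libraries in 1 fit and within either genotype alone, and over all alternatives its adjusted p ran from 0.0106 to 0.154. The *Tubg1* and *Tubgcp3* calls were lost with controls alone (adjusted p = 0.0830 and 0.0839).

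The ring-specific subunits split. *Tubgcp4* fell from a range of 205 to 345, with a median of 306, to one of 128 to 247, with a median of 178, and E11.5 mutant A, at 205, and control D, at 244, lay inside the E14.5 range. The log2 fold change was -0.67 (SE 0.15, adjusted p = 0.00151). It was -0.95 among controls alone and -0.39 among mutants alone, where the call was lost (adjusted p = 0.1345), and the difference between those 2 changes was 0.56 (SE 0.28, adjusted p = 0.620, limma interaction). *Tubgcp6* spanned 197 to 277 at E11.5 and 139 to 215 at E14.5, with a log2 fold change of -0.43 (SE 0.11, adjusted p = 0.00392). That call was lost with mutants alone (adjusted p = 0.175) and with all 24 libraries in 1 fit (adjusted p = 0.0795). *Tubgcp5* spanned 206 to 263 and 216 to 272 at the 2 ages, and its 95% interval of -0.14 to 0.26 left out declines as large as those of *Tubgcp4* and *Tubgcp6*.

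*Nedd1*, the anchor of the ring, had the largest change of the 10 in log2 units. It had 153, 145 and 148 normalized reads in the E11.5 mutants and 152, 129.6 and 155 in the E11.5 controls. In the E14.5 cortices it had 84.7, 67.3 and 90.8 in mutants and 77.6, 66.8 and 67.1 in controls. Every E11.5 cortex was above every E14.5 cortex, with a log2 fold change of -0.96 (SE 0.11), a fold of 0.52, and an adjusted p of 2.75e-06. The adjusted p stayed at or below 0.00205 under every alternative tried. *Nedd1* was also the gene with the fewest reads, 21 to 237 a library. *Mzt1* did not pass the test. Its ranges were 219 to 279.8 at E11.5 and 234 to 282 at E14.5, a log2 difference of 0.05 with a 95% interval of -0.14 to 0.25.

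Of the 3 genes whose groups did not overlap between the ages, all were lower at E14.5, and 14.9% of all genes tested showed that pattern. By the exact permutation test within genotype (two-sided), *Pcnt*, *Tubg1*, *Tubgcp2* and *Nedd1* each reached 0.005, the smallest p that test can give here. The summed level of the cycling cell markers *Mki67*, *Top2a*, *Ccnb1*, *Ccna2*, *Bub1*, *Cenpf*, *Aurkb* and *Kif11* moved the same way, with all 8 above 0 in each group. This sum was 20297 to 24243 at E11.5 and 10178 to 17190 at E14.5. The summed level of 8 markers of postmitotic neurons was 8819 to 13207 at E11.5 and 29955 to 42242 at E14.5. Their part in the changes of the 10 genes was not tested.

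**Figure D2:**
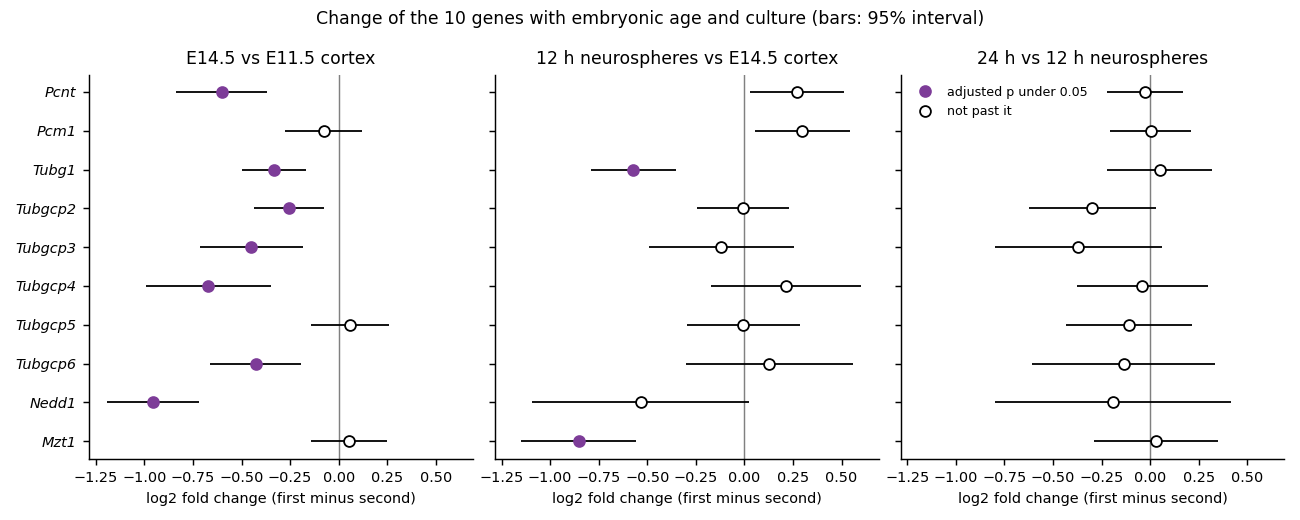
Log2 fold change of the 10 genes (x axis, first condition minus second) for E14.5 against E11.5 cortex, 12 h neurospheres against E14.5 cortex and 24 h against 12 h neurospheres. Points are limma estimates from 6 against 6 libraries, bars are 95% intervals, and filled points have an adjusted p under 0.05, which were 7 genes with age, 2 on culture and none between the culture times.

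Promoters of the genes were looked up in RefSeq for assembly GRCm38.p6, as windows of 250 bases before to 50 bases after the transcript start. The table held windows for 6 of the 10 genes, *Pcnt*, *Tubgcp3*, *Tubgcp4*, *Tubgcp5*, *Tubgcp6* and *Mzt1*. Shown are 3 of the genes that fell with age, the scaffold *Pcnt* (chr10:76442863-76443162, minus strand), *Tubgcp4* (chr2:121170918-121171217, plus strand) and *Tubgcp6* (chr15:89123101-89123400, minus strand), and *Mzt1* (chr14:99046087-99046386, minus strand), which did not pass the test. Each reads 5′ to 3′ along the gene, and capitals mark matches, on either strand, to motifs known from cell cycle and housekeeping promoters: the CCAAT box (CCAAT), the core of the cell cycle homology region (TTTGAA), an E2F-type site (GGCGGGAA) and the GC box (GGGCGG).
Pcnt: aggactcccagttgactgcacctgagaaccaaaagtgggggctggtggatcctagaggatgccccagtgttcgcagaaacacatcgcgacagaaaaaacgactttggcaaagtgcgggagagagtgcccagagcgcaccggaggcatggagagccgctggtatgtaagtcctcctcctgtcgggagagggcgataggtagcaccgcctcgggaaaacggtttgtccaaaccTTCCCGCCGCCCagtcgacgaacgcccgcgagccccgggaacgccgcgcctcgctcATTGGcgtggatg
Tubgcp4: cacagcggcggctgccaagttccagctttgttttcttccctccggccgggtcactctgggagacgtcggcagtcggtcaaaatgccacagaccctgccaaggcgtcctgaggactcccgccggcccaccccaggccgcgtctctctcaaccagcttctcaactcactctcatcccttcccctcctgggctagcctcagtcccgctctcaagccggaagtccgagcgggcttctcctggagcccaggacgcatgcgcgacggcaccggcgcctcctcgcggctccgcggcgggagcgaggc
Tubgcp6: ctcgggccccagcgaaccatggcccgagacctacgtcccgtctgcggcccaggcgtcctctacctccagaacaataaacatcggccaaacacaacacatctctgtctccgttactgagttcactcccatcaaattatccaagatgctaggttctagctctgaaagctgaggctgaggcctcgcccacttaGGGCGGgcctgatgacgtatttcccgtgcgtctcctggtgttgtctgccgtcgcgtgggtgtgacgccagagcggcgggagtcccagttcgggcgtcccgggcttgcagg
Mzt1: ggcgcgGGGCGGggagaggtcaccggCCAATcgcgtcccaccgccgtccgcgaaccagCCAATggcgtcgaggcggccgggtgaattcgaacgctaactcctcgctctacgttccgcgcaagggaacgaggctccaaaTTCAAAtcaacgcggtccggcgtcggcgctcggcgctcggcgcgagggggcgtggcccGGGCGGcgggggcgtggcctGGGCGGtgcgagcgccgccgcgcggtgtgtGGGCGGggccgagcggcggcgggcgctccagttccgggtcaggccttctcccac

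The E2F-type letters were found in the *Pcnt* window alone among the 6, where they begin 19 bases before the start and overlap a GC box match. They were in 2.19% of the 32851 windows of all genes. The CCAAT box was in *Pcnt* and *Mzt1* and in 37.4% of all windows, and the TTTGAA core was in *Mzt1* and in 17.9%. The GC box was in 4 of the 6 windows, *Pcnt*, *Tubgcp5*, *Tubgcp6* and *Mzt1*, and in 35.7% of all. The *Tubgcp4* window held none of these letters. None of the 4 motifs was in all 4 windows of genes that fell with age, which say nothing about the factors that bind them.

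Other genes of the centrosome and spindle gave a mixed picture at the same step. All 7 kinases of centrosome maturation were lower at E14.5. *Plk1*, the kinase that drives expansion of the pericentriolar material, fell from a mean of 1170.1 to 493 normalized reads, a log2 change of -1.23 (adjusted p = 1.40e-07). *Aurka* fell by 1.19 and *Cdk1* by 0.91 on the log2 scale. Augmin, which recruits the ring to existing spindle microtubules, had 6 of 8 subunits lower and none higher, among them *Haus3* at -0.67, *Haus6* at -0.55 and *Haus5* at -0.72. The median log2 change was -0.78 for the kinases and -0.63 for augmin.

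The partners and scaffolds of gamma-tubulin moved both ways, with 4 of 13 tested genes higher and 7 lower. The higher ones were led by *Pde4dip*, which encodes the scaffold myomegalin, at 1.37 (adjusted p = 2.84e-08), by *Tubg2*, the second gamma-tubulin gene, at 1.82 (adjusted p = 6.27e-07), and by *Akap9*, which anchors the ring at the Golgi, at 0.92 (adjusted p = 1.06e-05). The lower ones were led by *Tpx2*, a spindle assembly factor, at -0.82, *Cep192*, which recruits Aurora A and PLK1 to centrosomes, at -0.57, and *Odf2*, a centriole appendage protein, at -0.45. The paralogs *Tubg1* and *Tubg2* thus changed in opposite directions. *Tubg2* had 18.1, 29.0 and 22.4 normalized reads in the E11.5 mutants and 37.3, 27.6 and 21.8 in the E11.5 controls. It had 90.3, 110.4 and 76.0 in the E14.5 mutants and 107, 69.7 and 105 in the E14.5 controls, all above every E11.5 cortex. Both genes lie on chromosome 11, *Tubg1* at chr11:101119938-101126419 and *Tubg2* at chr11:101155907-101161787 on the plus strand of GRCm38. Whether reads of 1 paralog were lost or assigned to the other was not tested, so both levels carry that uncertainty. Of 10 satellite genes, *Hook3* (0.37) and *Bbs4* (0.62) were higher, and *Ssx2ip* (-0.40) and *Cep72* (-0.74) were lower.

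**Figure D3:**
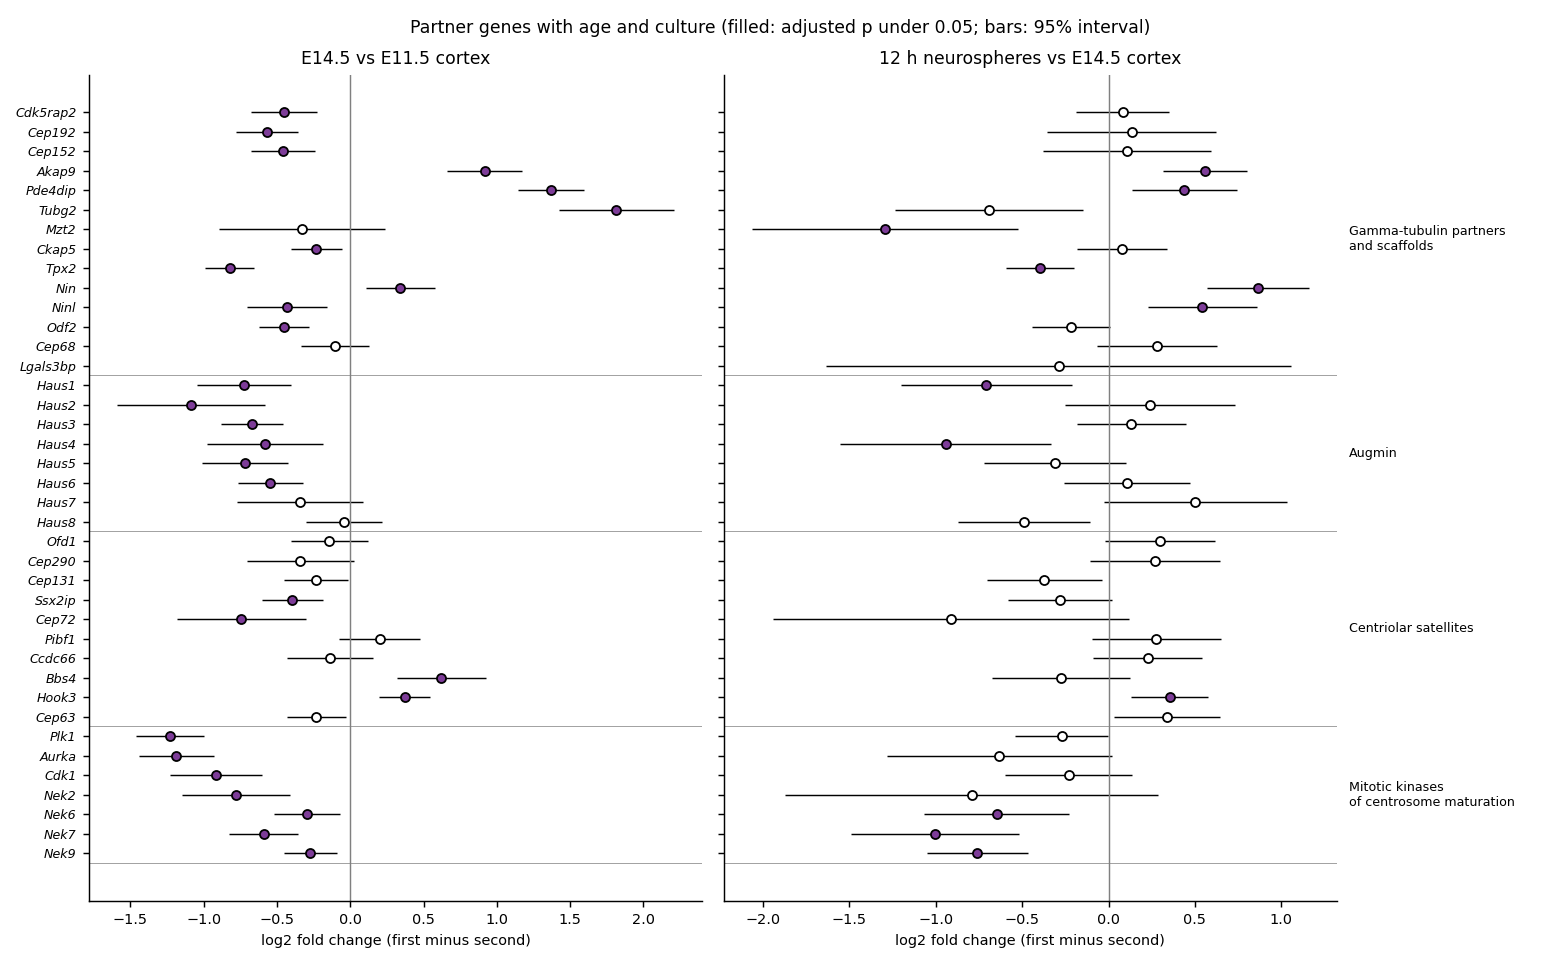
Log2 fold change (x axis, first condition minus second) of partner genes in 4 lists (y axis) for E14.5 against E11.5 cortex (left) and 12 h neurospheres against E14.5 cortex (right). Points are limma estimates from 6 against 6 libraries, bars are 95% intervals and filled points have an adjusted p under 0.05. All 7 kinases and 6 of 8 augmin subunits are lower with age, while *Tubg2*, *Pde4dip* and *Akap9* are higher. *Lgals3bp* was below the filter in the cortices and has no point on the left.

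After 12 hours, 2 of the 10 genes were called lower than in the E14.5 cortices of the same embryos, *Mzt1* and *Tubg1*, and none was called higher. Of all 13601 genes tested, 16.1% were called lower and 14.1% higher. *Mzt1*, which had not passed the test with age, showed the larger decline. It had 242, 282 and 236 normalized reads in mutant cortices 1, 2 and 6 and 133, 167 and 103 in their neurospheres. In controls 3, 4 and 5 it had 234, 278 and 265 in cortex and 137, 169 and 148 in neurospheres. The decline was seen in 6 of 6 embryos, with a log2 fold change of -0.85 (SE 0.14), a fold of 0.55, and an adjusted p of 0.000287.

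*Tubg1* spanned 421 to 475 in the E14.5 cortices and 273 to 362 in the 12 h neurospheres, also without overlap and lower in 6 of 6 embryos. Its log2 fold change was -0.57 (SE 0.10, adjusted p = 0.000735), and with mutants alone, at -0.55, the call was lost (adjusted p = 0.0531). These were 2 of the 10 genes without overlap and lower, against 7.76% of all genes tested. For each of these, all 6 embryos changed the same way, and the exact permutation test over embryos (two-sided) gave 0.03125, the smallest p it allows. *Tubg1* therefore had 3 distinct levels, highest at E11.5, lower at E14.5 and lowest in culture, where the 12 h and 24 h ranges overlapped.

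The other 8 genes did not pass the test after 12 hours. The log2 difference was 0.27 for *Pcnt* (SE 0.11, adjusted p = 0.0815) and 0.30 for *Pcm1* (SE 0.12, adjusted p = 0.0619), each positive in all embryos but mutant 6 and, for *Pcm1*, control 5. Without the cortex of mutant 6, *Pcnt* was called, at 0.36 (adjusted p = 0.0182). *Pcm1* was called without the neurospheres of mutant 6, at 0.37 (adjusted p = 0.0129), and without the cortex of control 5, at 0.35 (adjusted p = 0.0378). *Nedd1* stood at 40.9, 50.5 and 43.9 in the mutant neurospheres and at 55.1, 115 and 32.6 in controls 3, 4 and 5, so that control 4 lay far above the others. The log2 difference of *Nedd1* from the cortices was -0.53 (SE 0.26, adjusted p = 0.137) with control 4 and -0.78 (adjusted p = 0.0105) without it. The 5 genes *Tubgcp2*, *Tubgcp3*, *Tubgcp4*, *Tubgcp5* and *Tubgcp6* each went down in some embryos and up in others.

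**Figure D4:**
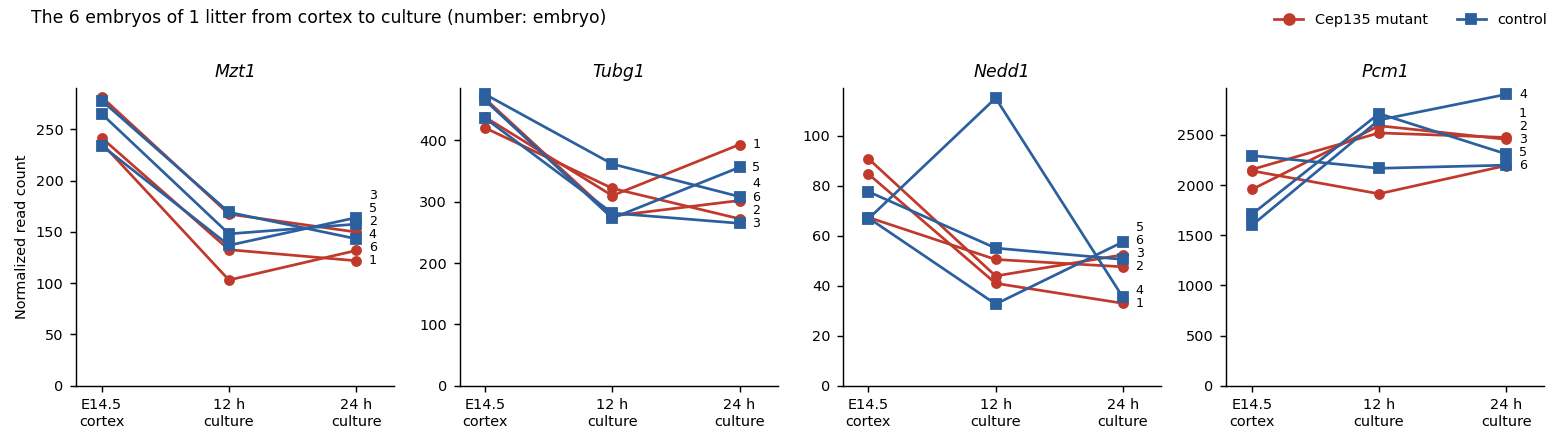
Normalized read count (y axis, linear and starting at 0) of *Mzt1*, *Tubg1*, *Nedd1* and *Pcm1* in the E14.5 cortex and the 12 h and 24 h neurospheres of each of 6 embryos, joined by a line and numbered at the right (circles, *Cep135* mutants; squares, controls). *Mzt1* and *Tubg1* drop in all 6 embryos by 12 hours, and *Nedd1* drops in all but control 4. By 24 hours *Mzt1* and *Tubg1* have each risen again in 3 of the embryos, but all remain below every E14.5 cortex.

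Around these genes, *Nin* (0.86), *Akap9* (0.56) and *Ninl* (0.54), which encode large centrosomal scaffolds, were higher in the 12 h neurospheres on the log2 scale. *Mzt2*, the second MZT gene, was lower at -1.30 (adjusted p = 0.0136), as was *Tpx2* at -0.40. In all, 4 of 14 partners and scaffolds tested were called higher and 2 lower. The mitotic kinases had 3 of 7 called lower, *Nek9* (-0.76), *Nek7* (-1.003) and *Nek6* (-0.65), none called higher, and *Plk1*, *Aurka*, *Cdk1* and *Nek2* not past the test. Augmin had *Haus4* (-0.94) and *Haus1* (-0.71) lower, and of the satellites *Hook3* (0.35) was higher. The summed level of the cycling cell markers was 7681 to 11706 in the 12 h neurospheres, against 10178 to 17190 in the E14.5 cortices. Markers of red blood cells were higher in culture, 68400 to 149676 against 37756 to 44776, and endothelial sums went from 827 to 994 down to 24.3 to 116. Their part in the changes of the 10 genes was not tested.

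Between 12 and 24 hours of culture, 0 of the 10 genes was called by limma, edgeR or DESeq2, and 0 had an unadjusted p under 0.05. Over all 13359 genes, 1288 had an unadjusted p under 0.05. Of these 13359 genes, 0.150% were called higher and 0.142% lower, and 0.434% had all 24 h libraries below all 12 h libraries. *Tubgcp3* showed the largest log2 difference, -0.37 (SE 0.20, adjusted p = 0.593), with a 95% interval of -0.80 to 0.06. It was lower at 24 hours in 5 of 6 embryos, and among controls alone the difference was 0.03. In the mutants it went from 137, 216 and 178 to 99.6, 109 and 96.9, and in the controls from 109, 86.9 and 134 to 141, 80.9 and 118. *Tubgcp2* was also lower in 5 of 6 embryos, at -0.30 (SE 0.16, adjusted p = 0.556).

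The comparison of genotypes asks whether loss of a centriole protein was accompanied by a change in transcripts of the material around it. In none of the 4 conditions was any of the 10 genes called by limma, edgeR or DESeq2. In the cortices, limma called 0.0149% of all genes at the younger age and 0.0736% at the older one. In culture it called 0% after 12 hours and 0.271% after 24 hours, and edgeR called 1, 9, 0 and 40 genes in these 4 conditions. DESeq2 called more, 34, 64, 9 and 182, against 2, 10, 0 and 36 by limma. With a term for the *Gm42418* share the 36 genes at 24 hours fell to 0. Every 24 h mutant had a larger share than every 24 h control, so share and genotype cannot be told apart in that fit. At 12 hours, 650 of 13389 genes had an unadjusted p under 0.05. With the 12 cortices of both ages together, 0 of the 10 genes and 0.139% of all genes were called, which is 19 genes, against 18 by edgeR and 98 by DESeq2. The number of the 10 genes with an unadjusted p under 0.05 was 2 in the E14.5 cortices, 1 in the 12 h neurospheres and 0 in the other comparisons, E11.5, 24 hours and both ages together. Over all genes it was 1236 of 13583 at E14.5, 991 of 13406 at E11.5, 1414 of 13300 at 24 hours and 1189 of 13650 with both ages together. Over all alternatives, the smallest adjusted p of any of the 10 genes in any genotype comparison was 0.144.

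At E11.5, the 10 log2 differences lay between -0.08 and 0.16, with 5 positive and 5 negative and a median of 0.01. All 10 pairs of groups overlapped, where 13.3% of all genes had groups that did not. The 95% intervals of the 10 genes lay between -0.52 (*Tubgcp4*) and 0.45 (*Tubgcp6*), so differences within those bounds remain possible at this size. The narrowest was that of *Pcm1*, 0.24 on either side.

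At E14.5, 8 of the 10 differences were positive and the median was 0.15, against 0.01 over all genes. *Tubgcp4* had 207, 188 and 247 normalized reads in mutants and 161, 128 and 167 in controls. *Tubgcp6* had 193, 215 and 165 in mutants and 139, 155 and 153 in controls. For these 2 of the 10 genes every mutant was above every control, a pattern without overlap that 13.7% of all genes showed. The log2 differences were 0.49 (SE 0.17, p = 0.0163, adjusted p = 0.498) and 0.35 (SE 0.16, p = 0.0487, adjusted p = 0.547) by limma, and the exact permutation p of 0.1 for each is the smallest that 3 against 3 allows. All 3 E14.5 controls were male by their Y-linked transcripts and 2 of 3 mutants were female. With a term for sex the values were 0.70 for *Tubgcp4* and 0.15 for *Tubgcp6*. That fit sets mutant 6, the only male mutant, against the 3 controls, so these values rest on 1 mutant and cannot separate sex from genotype. Cycling cell sums were 13553 to 17190 in these mutants and 10178 to 13384 in the controls, neuron sums 29955 to 32084 and 39456 to 42242, and microglia sums 745 to 943 and 401 to 466. Their part in these differences was not tested.

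In the 12 h neurospheres, *Tubgcp3* had 137, 216 and 178 normalized reads in mutants and 109, 86.9 and 134 in controls, and it was the only one of the 10 genes without overlap, against 11.0% of all genes. Its log2 difference was 0.68 (SE 0.29, adjusted p = 0.913). *Tubgcp5* had a log2 difference of 0.43 (SE 0.24, adjusted p = 0.913), with control 3, at 263, above mutant 6, at 236. The intervals were widest in this condition. That of *Nedd1* reached from -1.42 to 0.64, and the most precise, that of *Pcm1*, was 0.34 on either side.

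By 24 hours, *Tubgcp3* had 99.6, 109 and 96.9 in mutants and 141, 80.9 and 118 in controls, and none of the 10 genes had groups without overlap, against 16.2% of all genes. Here 3 of 10 differences were positive and the median was -0.03. The difference between the *Tubgcp3* genotype effects at 24 and 12 hours was -0.80 (SE 0.37, adjusted p = 1, limma interaction), the only one of 30 such interaction values with an unadjusted p under 0.05. No interaction of genotype with age, culture or culture time was called by limma among the 10 genes or among all genes (0% in each), where 1070, 724 and 318 of all genes had an unadjusted p under 0.05. Over all genes, edgeR called 0, 1 and 0 and DESeq2 called 17, 5 and 0, none of them among the 10. The genotype effect of *Tubgcp4* was 0.56 higher at E14.5 than at E11.5, as given with the age comparison. From E14.5 cortex to 12 h neurospheres it differed by -0.67 (SE 0.33, adjusted p = 0.793) and that of *Tubgcp6* by -0.68 (SE 0.38, adjusted p = 0.793). At 12 hours, control 4 had 336 normalized reads of *Tubgcp4*, against at most 199.9 in the other libraries. Over the alternatives the *Tubgcp4* value ran from -0.87 to -0.37.

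**Figure D5:**
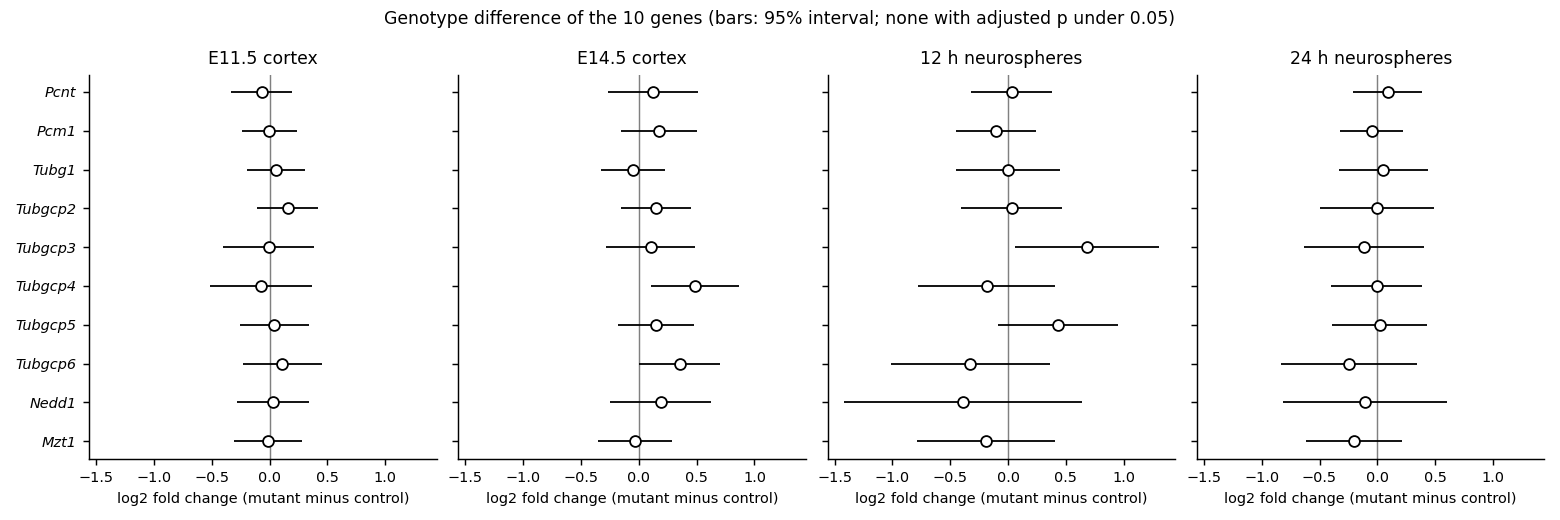
Log2 fold change between *Cep135* mutants and controls (x axis, mutant minus control) for the 10 genes (y axis) in each of the 4 conditions. Points are limma estimates from 3 against 3 libraries and bars are 95% intervals, which leave out 0 for *Tubgcp4* and *Tubgcp6* at E14.5 and *Tubgcp3* at 12 hours, and no gene has an adjusted p under 0.05.

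With the 2 ages together, 9 of the 10 differences were positive, against 7168 of 13650 over all genes, and the median of the 10 was 0.09, against 0.01 for all genes. None passed the test. The smallest p-values were those of *Tubgcp6* at 0.23 (SE 0.11, adjusted p = 0.572) and *Tubgcp2* at 0.15 (SE 0.08, adjusted p = 0.616), by limma. The highest bound of the 10 intervals was 0.53, for *Tubgcp4*, in this fit of 1 genotype difference for both ages, and it was 0.86 for the same gene in the E14.5 cortices alone. None of the partner genes of the 4 lists was called by limma in any genotype comparison, and 0 to 3 genes of a list had an unadjusted p under 0.05. At 24 hours these were 3 of 7 kinases, against 1414 of 13300 over all genes. Of the gamma-tubulin partners and scaffolds they were 3 of 13 at E14.5, against 1236 of 13583, and 3 of 13 with both ages together, against 1189 of 13650.

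Across the 24 libraries, the 10 genes were only loosely related to each other. Pearson correlations of their 45 pairs on the log2 scale ran from -0.59 to 0.85, with a median of 0.33, and 36 were above 0. The highest were those of *Tubg1* with *Nedd1* (0.85) and with *Mzt1* (0.83), and the lowest was that of *Tubgcp3* with *Pcm1* (-0.59). These are descriptions over libraries that share conditions, embryos and depth. Among 9661 genes with a mean of at least 50, the most alike were *Net1* for *Nedd1* (0.95), *Vit* for *Mzt1* (0.96), *Lix1* for *Tubg1* (0.94), *Tcof1* for *Pcnt* (0.91) and *Huwe1* for *Pcm1* (0.93). *Dbf4*, which activates the CDC7 kinase at replication origins, led for *Tubgcp4* (0.84), followed by *Cep135* itself (0.83). *Tipin*, of the replication fork protection complex, led for *Tubgcp3* (0.89), and *Hist1h1d*, a linker histone, for *Tubgcp2* (0.91). *Lpin2* led for *Tubgcp6* (0.90) and *Sbds*, a ribosome maturation factor, for *Tubgcp5* (0.76), the weakest of these.

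Ordered by their means over the 4 conditions, 7 genes were highest at E11.5, and the other three were *Mzt1*, *Tubgcp5* and *Pcm1*. For *Nedd1* the means were 147 ± 9.37 (SD, n = 6) and 75.7 ± 10.4 in the E11.5 and E14.5 cortices and 56.4 ± 29.8 and 46.1 ± 9.78 in the 12 h and 24 h neurospheres, and neighbouring conditions overlapped from E14.5 on. For *Mzt1* they were 256 ± 21.4 at E14.5, 247 ± 20.4 at E11.5, 145 ± 15.8 at 24 hours and 143 ± 24.7 at 12 hours, with overlap within the cortices and within the cultures but not between them. *Pcnt* was highest at E11.5, 774 ± 69.7, and its E14.5 mean, 514 ± 94.2, was the lowest, with 614 ± 26.9 and 604 ± 56.1 in culture. *Tubgcp5* means differed least, from 229 ± 34.8 at 24 hours to 249.9 ± 57.1 at 12 hours, and all neighbouring ranges overlapped.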

How the data were processed

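The 24 libraries were made from mouse dorsal telencephalon with a stranded 3′ oligo(dT) kit (QuantSeq FWD). According to the methods and the submitters' processing notes, the authors aligned reads with TopHat2 2.0.10 and Bowtie 1.0.0 to GRCm38, used SAMtools 0.1.19 and FastQC 0.11.7, counted reads per gene with HTSeq 0.6.1 on GENCODE M20, and divided counts by DESeq2 size factors (version not given in the sources used here). The deposited values are this normalized signal for 54658 genes.

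Each library's values were whole multiples of 1 read (484666 of 484666 values above 0, tolerance 0.001), so reads were recovered and run with edgeR 4.0.16 and DESeq2 1.42.0 as alternatives. The main test was limma 3.58.1 in R 4.3.3 on log2(value + 1), leaving out genes whose mean fell under 10, with genotype kept in the fits of age and culture, Benjamini-Hochberg adjustment over all genes tested and 95% intervals. Single genes were also tested by exact permutation. Read depth limits precision through counting error, most for *Nedd1*, and p-values measure the spread between embryos.

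Named were all 10 genes, *Cep135*, up to 3 higher and 3 lower partner genes with the smallest p in each comparison and the genes most alike over the 24 libraries. The members and lists were chosen with earlier results of these data known. Numbers pair the cortex and cultures because they mark the same embryo. Over 18 pairs of libraries of 1 embryo, deviations from group means correlated from -0.11 to 0.24, with a median of 0.14. Positions come from GENCODE M21 and promoters from RefSeq. Alternatives were other pseudocounts, filters, scalings and tools, terms for sex, litter and *Gm42418*, 1 genotype alone, an embryo block and leaving out each library.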

Additional observations from a re-analysis of the deposited data

Results flagged for a closer look

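In the 12 h neurospheres, control 4 stood apart from the other 5 libraries for 2 of the 10 genes. Its *Nedd1* level was 115 normalized reads, against 32.6 to 55.1 in the others. Its *Tubgcp4* level was 336, against 169 to 199.9 in the others. These were the only libraries that stood apart among 40 groups of 6 libraries looked at, and chance alone would mark about 1 in 20 groups. The same library had the largest *Gm42418* share, 34.8%, and its part in these values was not tested. By 24 hours the cells of control 4 had 35.4 and 233 normalized reads of the 2 genes, within the range of the other libraries.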

How the results depend on the processing

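Of 119 recomputed counts of called genes among the 10, 115 stayed within 1.5 times the reported one. The reported count was above 0 only for E14.5 against E11.5 and for 12 h neurospheres against E14.5 cortex. Every count that moved was there. In all other comparisons the count was 0 and stayed 0, and those counts are among the 115. For E14.5 against E11.5 the count was 4 with controls alone and 4 with mutants alone, where fewer samples entered. Controls alone lost *Tubg1*, *Tubgcp2* and *Tubgcp3*, and mutants alone lost *Tubgcp2*, *Tubgcp4* and *Tubgcp6* and turned *Pcm1* to 0.012. With all 24 libraries in 1 fit, *Tubgcp2* (adjusted p = 0.123) and *Tubgcp6* (adjusted p = 0.0795) were lost with age. For 12 h neurospheres against E14.5 cortex the count was 4 with all 24 libraries in 1 fit, which added *Pcnt* (adjusted p = 0.0362) and *Pcm1* (adjusted p = 0.0220), and 1 with mutants alone. *Pcm1* was also called there with TMM rescaling (adjusted p = 0.0494) and DESeq2 (adjusted p = 0.0409). Between 24 and 12 hours, *Tubgcp3* turned to 0.028 with controls alone. Beyond the fewer or added samples, the cause of these changes was not tested.

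Leaving out 1 library at a time gave 7 to 7 called genes with age, 2 to 3 on culture and 0 to 0 in every other comparison. With the embryo number as a replicate block, 2 genes were called on culture and 0 between the culture times, and this pairing changed no call among the 10. Over all genes it moved the calls between the culture times from 39 to 104 and those of the genotype by culture interaction from 0 to 3, and it added 1 mitotic kinase between the culture times. In every genotype comparison and interaction, 0 of the 10 genes was called under every alternative run. All genes called at 12 hours were 0 in the main fit and 77 with all 24 libraries in 1 fit. Among the E14.5 embryos and their cultures, the term for sex left 1 male mutant against 3 male controls. Of the partner lists, called genes ran from 6 to 11 for scaffolds, 4 to 7 for augmin, 2 to 6 for satellites and 4 to 7 for kinases with age, and from 1 to 7, 0 to 3, 0 to 4 and 1 to 4 on culture. Of 82 member values not given singly, none was called under any alternative. Between 3 and 3 embryos, 95% intervals of genotype differences were 0.24 to 1.03 wide on either side. These intervals are not adjusted for the number of genes tested, so differences larger than these widths could also go uncalled. Such were *Tubgcp4* and *Tubgcp6* at E14.5 and *Tubgcp3* at 12 hours, whose intervals left out 0.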
